A study of Arabidopsis thaliana with 18 samples.

Results

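The 26S proteasome subunit genes of Arabidopsis were taken as 49 listed loci, and all 49 were found among the 27827 loci with a value on the arrays. Of these, 23 encode the 20S core particle (12 alpha and 11 beta subunit genes) and 26 the 19S regulatory particle (10 ATPase and 16 non-ATPase subunit genes). The list holds 18 pairs of paralogues, 9 in each particle, and 13 genes without a listed partner. Within the list no gene was kept or dropped by a measured value, and the list itself was drawn up with earlier results of these data known. The plants were Arabidopsis thaliana of ecotype Columbia-0 (Col-0), and the stages were seedlings 72 h after imbibition and dry seeds harvested fresh. Total, monosomal and polysomal RNA of each stage was measured on 3 arrays, giving 6 groups and 18 arrays, with 8 plants bulked per replicate. The labels name no mutation and no applied agent for any group. Gene names follow the RefSeq table of TAIR10.1, in which 10 members are named by locus tag only and EMB2719 and MEE34 carry names of embryo phenotypes. These 12 were placed in their subunit families by the list, and that placement was not tested here.

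The proteasome is the large protease that degrades ubiquitin-tagged proteins. Its core particle is a barrel with outer rings of alpha subunits, which form the gate, and inner rings of beta subunits, of which the PBA, PBB and PBE families carry the caspase-like, trypsin-like and chymotrypsin-like active sites. The regulatory particle caps the barrel: its RPT ATPases unfold the substrate, and its RPN subunits bind ubiquitin chains, remove them or hold the particle together. In seeds and seedlings it is known for degrading regulators of hormone responses, among them abscisic acid and gibberellin signalling proteins. Many subunits are encoded by a pair of genes in Arabidopsis.

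All values are log2 intensities after RMA, which brings arrays towards a common distribution. A value is thus a position within a fraction and not an amount of RNA. Medians of all loci still differed by stage, at 3.44 to 3.65 in seedlings and 3.05 to 3.17 in dry seeds. Counts between stages depended on centring, as given below. Of the members, 48 lay above the array median on every array. MEE34 lay under it on 1 seedling array of total RNA. No member shared its values with another row. The arrays carried the stage they were labelled with: the 11 stored seed markers were lower in seedlings in each fraction and the 6 green seedling markers were higher. Polysomal replicate 3 of the seedlings stood apart, with a median of 6.49 over the stored seed markers, against 3.22 and 3.28 on its fellow arrays. Summed over these markers, the seedling monosomal arrays ran between 38.8 and 48.6, with replicate 1 the highest. Of 5 endosperm and seed coat markers 2 were higher and 2 lower in seedling total RNA, and 2 higher and 1 lower in each ribosomal fraction. Among these markers TT10 and BAN lay under the array median on all 18 arrays. The part of these markers in the results below was not tested. Stage counts are also given without that polysomal array and without monosomal replicate 1, a choice made after seeing the data. In bulk RNA, fewer cells of a type and less RNA per cell cannot be told apart.

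Seedlings were compared with dry seeds to ask how proteasome transcripts differ between the stages. More core particle genes were called higher than lower in seedlings in each fraction, while regulatory particle genes went both ways. With arrays centred on their medians the core split turned in total and monosomal RNA, as given below. In total RNA 12 of 23 core genes were higher and 1 was lower, and of 26 regulatory genes 5 were higher and 9 lower. In monosomal RNA 10 core genes were higher and 2 lower, and 6 regulatory genes were higher and 8 lower. In polysomal RNA 18 core genes were higher and 0 lower, and 7 regulatory genes were higher and 3 lower. A gene was called at an adjusted p under 0.05 in limma, with Benjamini-Hochberg adjustment over all 27827 loci.

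Among core genes 52.2%, 43.5% and 78.3% were called higher in total, monosomal and polysomal RNA, and among regulatory genes 19.2%, 23.1% and 26.9%. By the same rule 28.8% of all loci were called higher and 33.3% lower in total RNA. The shares of all loci were 26.8% higher and 24.9% lower in monosomal RNA, and 26.7% higher and 26.8% lower in polysomal RNA. In either direction 62.1%, 51.6% and 53.6% of all loci were called in total, monosomal and polysomal RNA. The core shares called higher thus lay above those of all loci in each fraction, while the regulatory shares lay under them in total and monosomal RNA and level with them in polysomal RNA. Called lower were 4.35%, 8.7% and 0% of core genes and 34.6%, 30.8% and 11.5% of regulatory genes in the same order of fractions. In either direction 56.5%, 52.2% and 78.3% of core genes and 53.8%, 53.8% and 38.5% of regulatory genes were called, so that the core genes exceeded all loci clearly in polysomal RNA alone of the 3 fractions. A change of at least 2-fold beside the call was found for 9 members in total RNA, 4 in monosomal RNA and 11 in polysomal RNA. These were 18.4%, 8.16% and 22.4% of the members, against 41.1%, 37.1% and 40% of all loci by the same rule.

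The split depended on how arrays were centred. With each array centred on its median, 7 core genes were higher and 8 lower in total RNA, 4 higher and 6 lower in monosomal RNA, and 12 higher and 1 lower in polysomal RNA. Of the regulatory genes, 1 was higher and 15 lower in total RNA, 1 higher and 12 lower in monosomal RNA, and 4 higher and 10 lower in polysomal RNA. That centring moved the median change of all loci by −0.51, −0.36 and −0.44 in the 3 fractions. It left 20.8%, 19.9% and 20.1% of all loci higher and 54%, 37.1% and 43.6% lower in total, monosomal and polysomal RNA. With that centring the core share called higher lay under that of all loci in monosomal RNA (4 of 23). It stayed above in total and polysomal RNA. Cyclic loess scaling gave 23 members higher and 7 lower in total RNA and 24 higher and 5 lower in monosomal RNA. In monosomal RNA 25 were higher and 6 lower with centring on the 75th percentile, and 25 higher and 7 lower with quantile scaling. Of all loci, loess scaling called 29.5% higher and 28.9% lower in total RNA and 25.5% each way in monosomal RNA. In monosomal RNA the 75th percentile called 32.2% of all loci higher and 21.5% lower, and quantile scaling 24.9% and 27.3%.

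**Figure D1:**
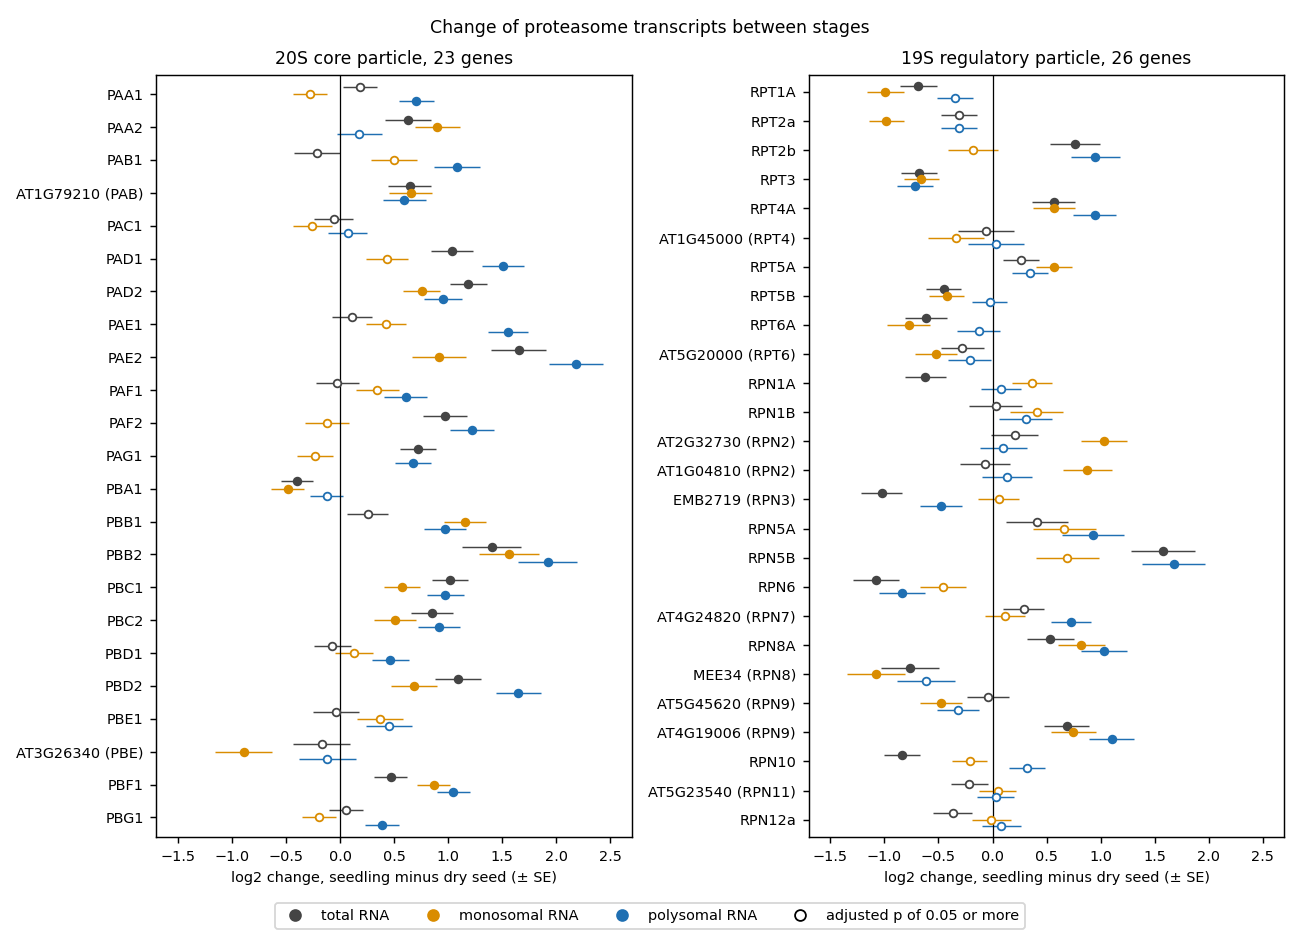
Log2 change (seedling minus dry seed, ± SE) of the 23 core genes on the left and the 26 regulatory genes on the right, in total, monosomal and polysomal RNA. Filled points were called in limma at an adjusted p under 0.05. Most filled core points lie right of 0, up to 2.18 for PAE2, while filled regulatory points lie on both sides, down to −1.08 for RPN6 and MEE34.

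The alpha subunit genes, which build the outer rings and the gate of the core, gave 7 higher of 12 in total RNA, 4 in monosomal RNA and 10 in polysomal RNA, and 0 lower in each. PAE2 read 5.62, 5.56 and 6.08 in seedling total RNA, against 4.15, 4.08 and 4.08 in dry seed total RNA. In polysomal RNA PAE2 read 5.89, 5.96 and 5.83 in seedlings, against 3.77, 3.44 and 3.92 in dry seeds. Every seedling array was above every dry seed array in both fractions. The change was 1.65 in total RNA (SE 0.25, adjusted p = 1.05e-05 in limma) and 2.18 in polysomal RNA (SE 0.25, adjusted p = 2.6e-07), or 4.53-fold. In monosomal RNA its change was 0.91 (adjusted p = 0.0043), and there the groups overlapped, since seedling replicate 3 at 4.81 lay under dry seed replicate 3 at 4.91. Medians of all loci were 3.10, 3.05 and 3.12 in dry seed polysomal RNA. How far PAE2 stood above background there was not tested.

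PAD1 and PAD2 are a pair of alpha subunit genes. PAD2 read 7.66, 7.96 and 7.79 in seedling total RNA, against 6.73, 6.55 and 6.58 in dry seed total RNA. Its groups did not overlap in any fraction, and it was called in each, with changes of 1.18 in total, 0.75 in monosomal and 0.95 in polysomal RNA. PAD1 changed by 1.04 in total RNA and 1.51 in polysomal RNA (adjusted p = 1.3e-06 in limma), and its monosomal change of 0.43 was not called. AT1G79210, placed in the PAB family, was also called in every fraction, with changes of 0.64 in total, 0.65 in monosomal and 0.60 in polysomal RNA. Its monosomal call was lost without seedling monosomal replicate 3 (0.48, adjusted p = 0.0631 in limma).

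PAE1 differed from its partner PAE2. In polysomal RNA PAE1 read 8.36, 8.39 and 8.57 in seedlings, against 6.91, 6.95 and 6.79 in dry seeds. In total RNA it read 7.24, 7.27 and 7.28 in seedlings, against 7.07, 7.25 and 7.13 in dry seeds. The polysomal groups stood far apart (change 1.55, SE 0.19, adjusted p = 5.16e-07 in limma), while the total RNA groups overlapped (change 0.11, not called). PAB1 gave the same kind of picture, with a called polysomal change of 1.08 and a change of −0.22 in total RNA that was not called.

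PAF2 averaged 6.78 ± 0.19 in seedling total RNA and 5.81 ± 0.15 in dry seed total RNA (SD, n = 3 each). It changed by 0.97 there and by 1.22 in polysomal RNA, both called, and by −0.12 in monosomal RNA, not called. PAG1 behaved likewise, with called changes of 0.72 in total and 0.68 in polysomal RNA and an uncalled −0.23 in monosomal RNA. PAA2 was the reverse case: its changes of 0.63 in total and 0.90 in monosomal RNA were called and that of 0.18 in polysomal RNA was not. The call of PAA2 in total RNA was lost without seedling total RNA replicate 2 (0.54, adjusted p = 0.0601 in limma). With median centring the calls of PAA2 and PAG1 in total RNA were lost. PAA1 and PAF1 were called in polysomal RNA alone of the 3 fractions, by 0.70 and 0.61, and PAC1 in none.

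The beta subunit genes, which line the catalytic chamber, gave 5 higher and 1 lower of 11 in total RNA, 6 higher and 2 lower in monosomal RNA and 8 higher and 0 lower in polysomal RNA. PBB2, of the trypsin-like family, read 7.74, 7.52 and 7.30 in seedling polysomal RNA, against 6.13, 5.14 and 5.53 in dry seed polysomal RNA. In total RNA it read 7.25, 6.90 and 7.08 in seedlings, against 5.22, 6.16 and 5.65 in dry seeds. The groups did not overlap, although dry seed arrays of PBB2 spread over almost 1 log2 unit. Its changes were 1.40 in total, 1.56 in monosomal and 1.92 in polysomal RNA (adjusted p = 0.0002, 6.65e-05 and 5.13e-06 in limma).

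PBD2 read 6.56, 6.92 and 6.90 in seedling polysomal RNA, against 5.18, 5.16 and 5.08 in dry seed polysomal RNA. Seedling arrays were all higher, with no overlap in any fraction, and the changes were 1.09 in total, 0.68 in monosomal and 1.65 in polysomal RNA. PBC1 changed by 1.02 in total, 0.57 in monosomal and 0.97 in polysomal RNA, and its partner PBC2 by 0.85, 0.51 and 0.92, all called. The monosomal call of PBC2 was lost with median centring (0.15, adjusted p = 0.54 in limma). It was also lost without dry seed monosomal replicate 3 (0.38) and without seedling monosomal replicate 1 (0.40) or 3 (0.52). PBF1 was called in every fraction as well, with 0.87 in monosomal and 1.05 in polysomal RNA. PBB1 was called in monosomal RNA (1.16) and polysomal RNA (0.97) but not in total RNA (0.26).

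The other active-site families did not follow PBB2. PBA1, the single gene of the caspase-like family, averaged 7.86 ± 0.11 in seedling total RNA and 8.26 ± 0.03 in dry seed total RNA (SD, n = 3 each). It was lower in total RNA by a called change of −0.40 and in monosomal RNA by −0.48, with no overlap, and it was not called in polysomal RNA. This gene lies outside the naming rule and was added for its role. The call of PBA1 in total RNA was lost with quantile and with loess scaling, and that in monosomal RNA with the 75th percentile. Of the chymotrypsin-like family, PBE1 was called in no fraction. AT3G26340, placed in that family, was lower in monosomal RNA alone of the 3 fractions (−0.89, adjusted p = 0.00695 in limma), with overlapping groups of 5.44, 4.17 and 4.93 in seedlings, against 5.38, 5.97 and 5.86 in dry seeds. That call was lost with loess scaling and without seedling monosomal replicate 2.

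The ATPase subunit genes, whose ring unfolds substrates, gave 2 higher and 4 lower of 10 in total RNA, 2 higher and 6 lower in monosomal RNA and 2 higher and 1 lower in polysomal RNA. RPT3 was the single member of all 49 called lower in every fraction. It read 7.68, 7.73 and 7.87 in seedling total RNA, against 8.28, 8.54 and 8.50 in dry seed total RNA. It read 7.78, 7.88 and 7.91 in seedling polysomal RNA, against 8.64, 8.49 and 8.60 in dry seed polysomal RNA. The groups were apart in each fraction, with changes of −0.68 in total, −0.66 in monosomal and −0.72 in polysomal RNA (adjusted p = 0.00147, 0.00215 and 0.0009 in limma).

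RPT1A was lower by a change of −0.69 in total RNA and of −0.99 in monosomal RNA, where it read 7.45, 7.34 and 7.74 in seedlings, against 8.64, 8.37 and 8.49 in dry seeds. Its polysomal change of −0.35 was not called. RPT6A was lower in total RNA (−0.62) and monosomal RNA (−0.78), and both calls were lost with loess scaling, the first also without seedling total RNA replicate 1. RPT2a was lower in monosomal RNA (−0.98), and AT5G20000, placed in the RPT6 family, by −0.52 there with overlapping groups. The call of AT5G20000 was lost with 75th percentile, quantile or loess scaling, and without seedling monosomal replicate 1 (−0.35) or dry seed monosomal replicate 1 (−0.49) or 3 (−0.40). RPT5B, at −0.45 in total and −0.43 in monosomal RNA, was called in both with a change under the size set for naming.

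Higher ATPase genes were RPT4A, called in each fraction with 0.56 in total, 0.57 in monosomal and 0.94 in polysomal RNA, and RPT2b, called in total RNA (0.76) and polysomal RNA (0.95). RPT5A was called in monosomal RNA (0.57). RPT4A read 7.37, 7.34 and 7.01 in seedling polysomal RNA, against 6.19, 6.37 and 6.34 in dry seed polysomal RNA, with no overlap. With arrays centred on their medians the calls of RPT4A in total and monosomal RNA, both calls of RPT2b, and that of RPT5A were lost. RPT4A also lost its call in total RNA without replicate 2 of seedling (0.46) or of dry seed total RNA (0.41), and in monosomal RNA without seedling replicate 1 (0.50) or dry seed replicate 1 (0.50) or 3 (0.53). RPT2b lost its call in total RNA without dry seed replicate 3 (0.56, adjusted p = 0.0522 in limma). AT1G45000, placed in the RPT4 family, was called in no fraction.

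The non-ATPase subunit genes gave 3 higher and 5 lower of 16 in total RNA, 4 higher and 2 lower in monosomal RNA and 5 higher and 2 lower in polysomal RNA. RPN5B, a scaffold gene of the lid, had the largest rise of the regulatory genes in total and polysomal RNA. It read 5.01, 5.38 and 5.54 in seedling total RNA, against 3.92, 3.45 and 3.84 in dry seed total RNA. In polysomal RNA it read 6.65, 5.75 and 6.40 in seedlings, against 4.80, 4.18 and 4.80 in dry seeds. The groups did not overlap in either fraction, and the changes were 1.58 (SE 0.29, adjusted p = 0.000116 in limma) and 1.67 (SE 0.29, adjusted p = 5.78e-05). Medians of all loci were 3.15, 3.17 and 3.07 in dry seed total RNA. How far RPN5B stood above background there was not tested. RPN5A, the partner of RPN5B, was called in polysomal RNA alone of the 3 fractions, at 0.93, a call that was lost with median centring.

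RPN8A, whose protein partners the deubiquitinating subunit, was called in every fraction with 0.54 in total, 0.82 in monosomal and 1.03 in polysomal RNA. AT4G19006, placed in the RPN9 family, was called in each as well, with 0.69, 0.75 and 1.10. Its call in total RNA was lost without seedling replicate 3 (0.51, adjusted p = 0.0559 in limma). AT4G24820, placed in the RPN7 family, was called in polysomal RNA (0.72). AT2G32730 and AT1G04810, placed in the RPN2 family of large scaffold subunits, were called in monosomal RNA, by 1.03 and 0.88. With arrays centred on their medians, RPN8A and AT4G19006 lost their calls in total and monosomal RNA. AT1G04810 lost its monosomal call and AT4G24820 its polysomal call there too.

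Other lid and receptor genes were lower in seedling total RNA. RPN6 read 5.93, 6.36 and 6.59 in seedling total RNA, against 7.47, 7.11 and 7.54 in dry seed total RNA. EMB2719, placed in the RPN3 family, read 6.53, 6.87 and 6.87 in seedling total RNA, against 7.76, 7.80 and 7.78 in dry seed total RNA. RPN10, a ubiquitin receptor whose loss makes Arabidopsis seedlings hypersensitive to abscisic acid, read 7.24, 7.40 and 7.56 in seedling total RNA, against 8.18, 8.21 and 8.33 in dry seed total RNA. All 3 were lower on every seedling array, with changes of −1.08 for RPN6, −1.02 for EMB2719 and −0.84 for RPN10 (adjusted p = 0.000202, 0.000117 and 0.000204 in limma).

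In polysomal RNA RPN6 was called lower (−0.84), EMB2719 was called at −0.48, and RPN10 was not called, at 0.32. In monosomal RNA RPN6, EMB2719 and RPN10 were not called. MEE34, placed in the RPN8 family, was lower in total RNA (−0.76) and monosomal RNA (−1.08), and RPN1A, a scaffold and ubiquitin-binding subunit, in total RNA (−0.62). RPN1A was not called in monosomal (0.37) or polysomal RNA (0.08). The call of MEE34 in total RNA was lost without seedling replicate 3 (−0.71) or dry seed replicate 1 (−0.65). AT5G45620, placed in the RPN9 family, was called at −0.48 in monosomal RNA. RPN1B, RPN12a and AT5G23540, the last placed in the RPN11 family, were called in no fraction.

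Over the 3 fractions 11 members were called higher in each (8 core, 3 regulatory), 1 was called lower in each, and 6 were called in none. These were 22.4%, 2.04% and 12.2% of the members, against 19.1%, 17.6% and 22.4% of all loci. No member was called higher in 1 fraction and lower in another, as 2.05% of all loci were. With median centring AT1G79210, PBC2, RPT4A, RPN8A and AT4G19006 lost their calls in total and monosomal RNA. PAD2, PAE2, PBC1 and PBD2 lost theirs in monosomal RNA, and PBF1 in total RNA. PBB2 and RPT3 kept theirs in every fraction. Without seedling polysomal replicate 3 and monosomal replicate 1, the counts were 12 core genes higher and 1 lower and 5 regulatory genes higher and 9 lower in total RNA. They were 10 and 2 core and 5 and 5 regulatory genes in monosomal RNA, and 16 and 0 core and 8 and 3 regulatory genes in polysomal RNA.

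The contrast between the particles was also read as a median per array. The core median was 7.00, 6.90 and 7.08 in seedling total RNA, against 6.57, 6.38 and 6.30 in dry seed total RNA. In polysomal RNA it was 7.74, 7.49 and 7.57 in seedlings, against 6.39, 6.62 and 6.31 in dry seeds. The regulatory median was 6.85, 6.95 and 6.86 in seedling total RNA, against 6.91, 6.94 and 7.12 in dry seed total RNA. In the values as deposited, core medians of the stages did not overlap in any fraction, while regulatory medians overlapped in each. This reading depended on centring. Taken relative to the median of all loci on each array, core medians overlapped in total and monosomal RNA and stood apart in polysomal RNA. Regulatory medians were then lower on every seedling array than on every dry seed array of the same fraction.

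The median change over core genes was 0.47 in total, 0.43 in monosomal and 0.92 in polysomal RNA, and over regulatory genes −0.14, 0.02 and 0.08. Over all loci it was −0.17, 0.03 and −0.03. With median-centred arrays the core median turned to −0.036 in total RNA, where all loci stood at −0.67, and the regulatory medians were −0.65, −0.34 and −0.36. Loess scaling turned the regulatory median in total RNA to 0.091. The gap between core and regulatory medians was 0.61 in total, 0.41 in monosomal and 0.84 in polysomal RNA. It is untouched by centring, and lay between 0.51 and 0.93 with quantile or loess scaling. No test was run on the gap, since the members were chosen with earlier results known.

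**Figure D2:**
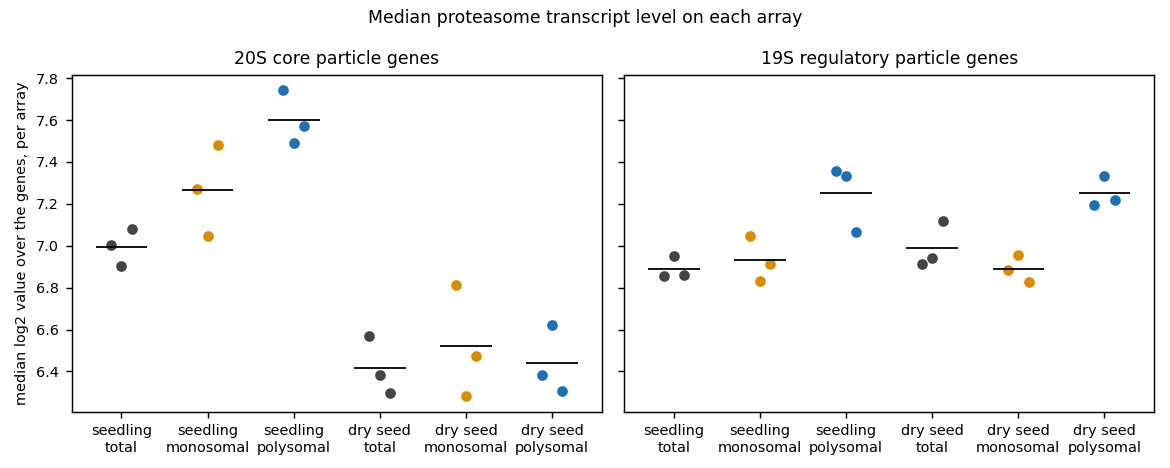
Median log2 value over the 23 core genes (left) and the 26 regulatory genes (right) on each array, by stage and fraction; lines are means of 3 arrays. Core medians of seedlings lie at 6.90 or higher and those of dry seeds at 6.81 or lower, while regulatory medians of the stages overlap. Values are as deposited and not centred on array medians, on which this contrast depends.

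Paralogue pairs were compared to ask whether both copies of a subunit gene changed alike between stages. The first gene minus the second was taken on each array, so that only changes and no levels of different probes were compared. The stage difference, averaged over the 3 fractions, was tested by an exact 2-sided permutation test that kept each array in its fraction (8000 arrangements, smallest possible p of 0.00025), with Benjamini-Hochberg adjustment over the 18 pairs. By this test the copies moved apart in 10 of 18 pairs (4 core, 6 regulatory), and in all 10 the difference had the same sign in each fraction. The test counts arrays of the 3 fractions as independent units, and whether they came from separate material is not known. The p values of pairs below rest on that independence. With stage labels permuted jointly for all fractions of a replicate number, 0 pairs were called. That form has 20 arrangements and a smallest possible p of 0.1, so it could call no pair and decides nothing here. A single fraction with 3 arrays against 3 cannot give a p under 0.1 either.

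The RPN8 pair had the largest measured difference. RPN8A read 6.74, 6.51 and 6.85 in seedling total RNA, against 6.39, 6.07 and 6.04 in dry seed total RNA. MEE34 read 3.67, 3.76 and 3.57 in seedling total RNA, against 4.65, 4.34 and 4.30 in dry seed total RNA. One copy was higher and the other lower on every seedling array, and the change of RPN8A exceeded that of MEE34 by 1.30 in total, 1.90 in monosomal and 1.65 in polysomal RNA. The mean was 1.61 (SE 0.24, exact permutation, adjusted p = 0.0011). The seedling total RNA values of MEE34 lay about the medians of all loci on those arrays, which were 3.63, 3.62 and 3.65. How far the signal of MEE34 stood above background there was not tested, so that the size of its change, and the rank of the pair with it, is not settled.

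The RPN9 pair split too. AT5G45620 read 6.82, 6.77 and 6.85 in seedling total RNA, against 6.86, 6.48 and 7.23 in dry seed total RNA. AT4G19006 read 7.36, 7.45 and 7.94 in seedling total RNA, against 6.93, 6.75 and 7.01 in dry seed total RNA. The ranges of AT5G45620 overlapped, while AT4G19006 was higher on every seedling array. AT5G45620 minus AT4G19006 changed by −1.12 on average (SE 0.12, adjusted p = 0.0011, exact permutation).

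In the RPT2 pair RPT2a read 7.64, 7.58 and 7.67 in seedling total RNA, against 7.78, 7.99 and 8.04 in dry seed total RNA. RPT2b read 6.07, 6.29 and 6.10 in seedling total RNA, against 5.46, 5.72 and 5.00 in dry seed total RNA. In total RNA RPT2b was called higher, and RPT2a was not called, at −0.31. In monosomal RNA RPT2a changed by −0.98, which was called, and RPT2b by −0.18, which was not. Averaged over the 3 fractions, RPT2a minus RPT2b changed by −1.04 (SE 0.13, adjusted p = 0.0011, exact permutation). In the PBD pair PBD1 changed by 0.17 averaged over fractions and PBD2 by 1.14, a difference of −0.97 (SE 0.11, adjusted p = 0.0011, exact permutation).

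The PAE pair differed by −0.89 (adjusted p = 0.0096), the PBB pair by −0.83 (adjusted p = 0.0032), the RPT4 pair by 0.82 (adjusted p = 0.0032) and the RPT5 pair by 0.70 (adjusted p = 0.0027), all by exact permutation. Averaged over fractions, PAE1 changed by 0.70 and PAE2 by 1.58, and PBB1 by 0.79 and PBB2 by 1.63. RPT4A changed by 0.69 and AT1G45000 by −0.12, and RPT5A by 0.39 and RPT5B by −0.30. The PBE pair (0.65, adjusted p = 0.0215) and the RPN5 pair (−0.65, adjusted p = 0.0468, exact permutation) passed too and lie outside the rule for naming. The RPN5 call was lost with quantile and with loess scaling and without any of 14 single arrays, and the PBE call without dry seed monosomal replicate 2 or 3.

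The 3 pairs whose changes differed least were PAD, PBC and RPN2. PAD1 minus PAD2 changed by 0.03, with a 95% interval of −0.16 to 0.22. PBC1 minus PBC2 changed by 0.10 (−0.16 to 0.35), and AT2G32730 minus AT1G04810 by 0.13 (−0.16 to 0.42). These intervals bound how far the copies may have moved apart and do not show that they act alike. In the PAD pair the mean covers a difference of 0.55 in polysomal RNA and of −0.32 in monosomal RNA. Sizes of the 8 pairs not called ran between 0.03 and 0.38. In the PAA, PAB and PAF pairs the difference changed sign between fractions, and PAA1 minus PAA2 was −1.18 in monosomal RNA and 0.52 in polysomal RNA. How far a probe set of 1 copy also binds RNA of the other was not tested.

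**Figure D3:**
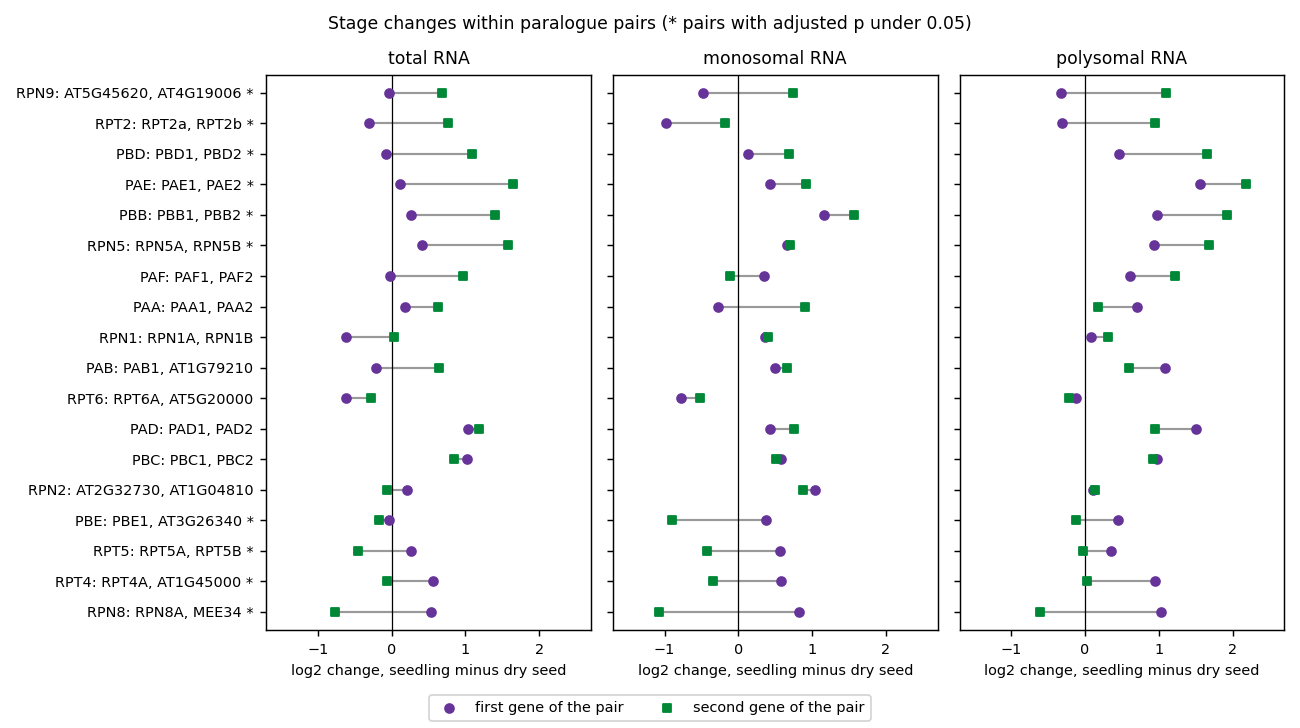
Log2 change (seedling minus dry seed) of both genes of each of the 18 paralogue pairs in total, monosomal and polysomal RNA, joined by a line; stars mark the 10 pairs with an adjusted p under 0.05 (exact permutation). Pairs at the top and bottom have the longest lines, with the RPN8 pair at a mean difference of 1.61, and the PAD, PBC and RPN2 pairs the smallest means.

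**Figure D4:**
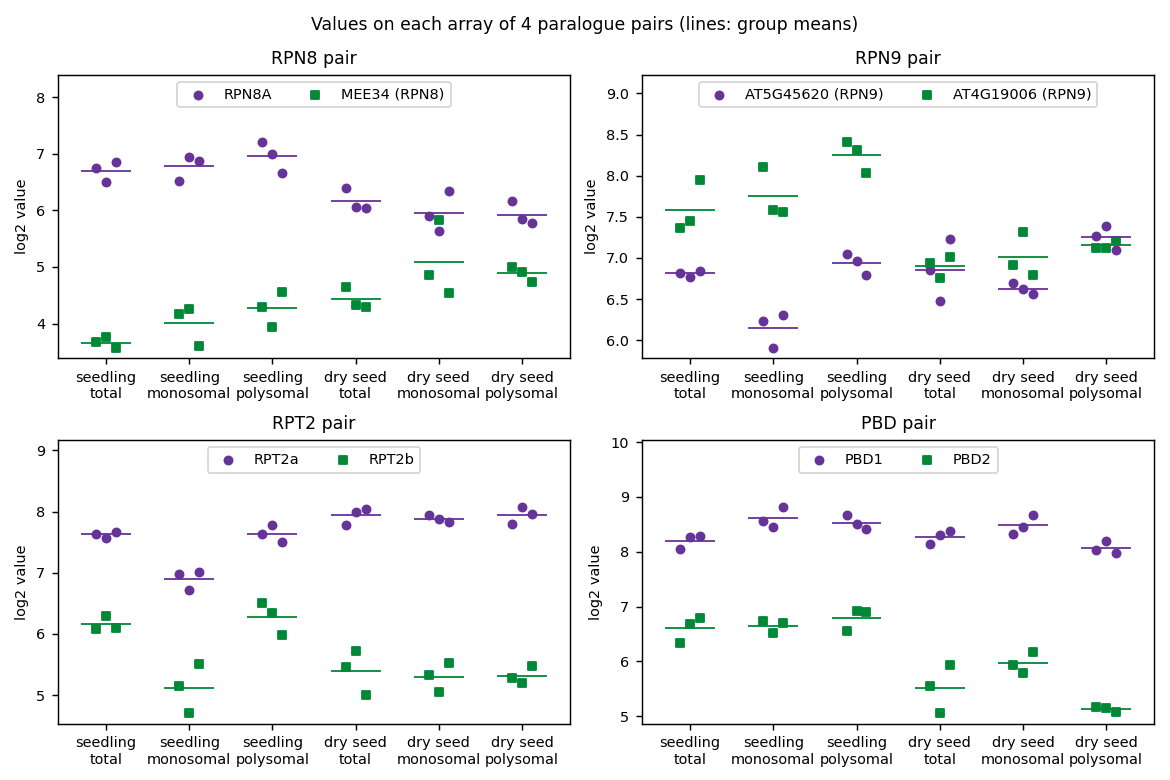
Log2 value on each array for the RPN8, RPN9, RPT2 and PBD pairs by stage and fraction; lines are means of 3 arrays. RPN8A lies at 6.51 or above and MEE34 at 4.56 or below on all seedling arrays, while dry seed arrays hold them closer together.

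Fractions were compared within each stage to ask which members stood higher or lower among ribosome-bound RNA than in total RNA. These comparisons share their arrays with each other and with the stage comparisons. In seedlings 14 of 49 members were higher in polysomal than in total RNA and 0 lower, where 9.86% of all loci were called higher and 10.7% lower (20.5% together). The 14 were 28.6% of the members. With loess scaling 9 were higher, and the count fell to 7 without total RNA replicate 1, to 8 without polysomal replicate 1 and to 9 without total RNA replicate 2. Leaving out seedling polysomal replicate 3 and monosomal replicate 1 together left 11 higher and 0 lower.

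PAE1 led the core genes: it read 8.36, 8.39 and 8.57 in seedling polysomal RNA, against 7.24, 7.27 and 7.28 in seedling total RNA. RPN10 led the regulatory genes, with 8.41, 8.41 and 8.76 in seedling polysomal RNA, against 7.24, 7.40 and 7.56 in seedling total RNA. All polysomal arrays were above all total RNA arrays for both. The differences were 1.18 for PAE1 (adjusted p = 0.000197 in limma) and 1.13 for RPN10 (adjusted p = 8.41e-05). Called differences of PAB1 (1.09), EMB2719 (1.01), RPN1A (1.01), RPN5B (0.95), RPN1B (0.78), RPT5B (0.75), PBB1 (0.74) and RPN6 (0.71) followed. The calls of RPN5B, RPN1B, PBB1 and RPN6 were lost without 4, 5, 2 and 2 of the single arrays, among them polysomal replicate 1 for each, which left differences of 0.76, 0.78, 0.62 and 0.54.

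Polysomal against monosomal RNA of seedlings gave 13 members higher and 0 lower, against 10.9% of all loci higher and 8.17% lower (19.1% together). Of these 4 were core and 9 regulatory genes. Centring on the 75th percentile gave 8 higher and 1 lower. Without seedling polysomal replicate 3 and monosomal replicate 1, 4 core and 10 regulatory genes were higher. A fit of these 2 groups alone left 3 calls.

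RPT2b read 6.50, 6.34 and 5.98 in seedling polysomal RNA, against 5.16, 4.70 and 5.50 in seedling monosomal RNA. PAA1 read 7.90, 7.96 and 8.01 in seedling polysomal RNA, against 6.72, 6.86 and 6.93 in seedling monosomal RNA. Neither gene had overlapping groups, and the differences were 1.15 (adjusted p = 0.00205 in limma) and 1.12 (adjusted p = 0.000189). RPN5B (1.05, groups overlapping), AT4G24820 (1.03), AT5G45620 (0.78), PAF2 (0.76), RPT2a (0.74), RPT1A (0.70), PAE1 (0.69) and RPT5B (0.68) were called as well. The call of RPN5B was lost without monosomal replicate 2 (0.91) or 3 (0.83) or polysomal replicate 1 (0.85) or 3 (0.98). Those of PAF2 and PAE1 were lost without monosomal replicate 2 (0.62 and 0.52) or polysomal replicate 3 (0.70 and 0.62).

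Monosomal against total RNA of seedlings gave 5 members higher and 7 lower, where 17.2% of all loci were higher and 14.5% lower (31.8% together), so that the share called was below that of all loci. RPT2b (−1.03), PAF2 (−0.82), RPT2a (−0.73), PAG1 (−0.66), AT5G45620 (−0.66) and PAA1 (−0.61) were lower, and EMB2719 (0.95), PAB1 (0.93), RPN6 (0.70) and RPN10 (0.65) were higher. The call of RPN6 was lost without monosomal replicate 1 (0.64) or 2 (0.64) or total RNA replicate 1 (0.52), and that of AT5G45620 without monosomal replicate 2 (−0.54). Median centring gave 13 higher and 5 lower, and the 75th percentile 12 higher and 6 lower.

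In dry seeds 0 members were called between polysomal and total RNA by limma, where 3.15% of all loci were higher and 1.5% lower (4.65% together). At an unadjusted p under 0.05 the count was 4, and with array weights 1 call was made. Monosomal against total RNA of dry seeds gave 0 higher and 3 lower, where 3.46% of all loci were higher and 2.74% lower (6.21% together). The 3 were AT2G32730 (−0.79), RPT5A (−0.65) and RPN1A (−0.64). None of the 3 calls was left without dry seed monosomal replicate 2, monosomal replicate 3, total RNA replicate 1 or total RNA replicate 2, and 1 was left without total RNA replicate 3.

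Polysomal against monosomal RNA of dry seeds called 10 members, or 20.4%, close to the 19% of all loci (11.5% higher and 7.49% lower). Of the members 7 were higher, all regulatory, and 3 were lower, 2 of them core, and no test compared the particles. AT2G32730 read 7.10, 7.27 and 7.23 in dry seed polysomal RNA, against 6.15, 5.77 and 5.81 in dry seed monosomal RNA. RPN1A read 8.79, 8.92 and 8.65 in dry seed polysomal RNA, against 8.13, 7.69 and 7.68 in dry seed monosomal RNA. These encode, by the list and by RefSeq, the large scaffold subunits of the regulatory particle, and their groups were apart.

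The differences were 1.29 for AT2G32730 (adjusted p = 0.000354 in limma) and 0.95 for RPN1A (adjusted p = 0.00133). Their paralogues AT1G04810 (0.92) and RPN1B (0.79) were called too, as were RPT5A (0.75), AT5G45620 (0.63) and EMB2719 (0.60). PBD2 read 5.18, 5.16 and 5.08 in dry seed polysomal RNA, against 5.94, 5.80 and 6.18 in dry seed monosomal RNA, a difference of −0.83 (adjusted p = 0.00922 in limma). RPT6A (−0.72) and PAD1 (−0.64) were also lower. The calls of RPN1B, AT5G45620, EMB2719 and PAD1 were each lost without any of 4 single arrays, with dry seed monosomal replicate 3 among them for each (0.79, 0.59, 0.56 and −0.59), and that of RPT6A without dry seed monosomal replicate 2 (−0.64). The balance depended on scaling, with 4 higher and 14 lower for the 75th percentile, 5 and 7 for quantile and 4 and 9 for loess scaling. Without dry seed monosomal replicate 2 or 3, or polysomal replicate 1, the call count was 6.

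**Figure D5:**
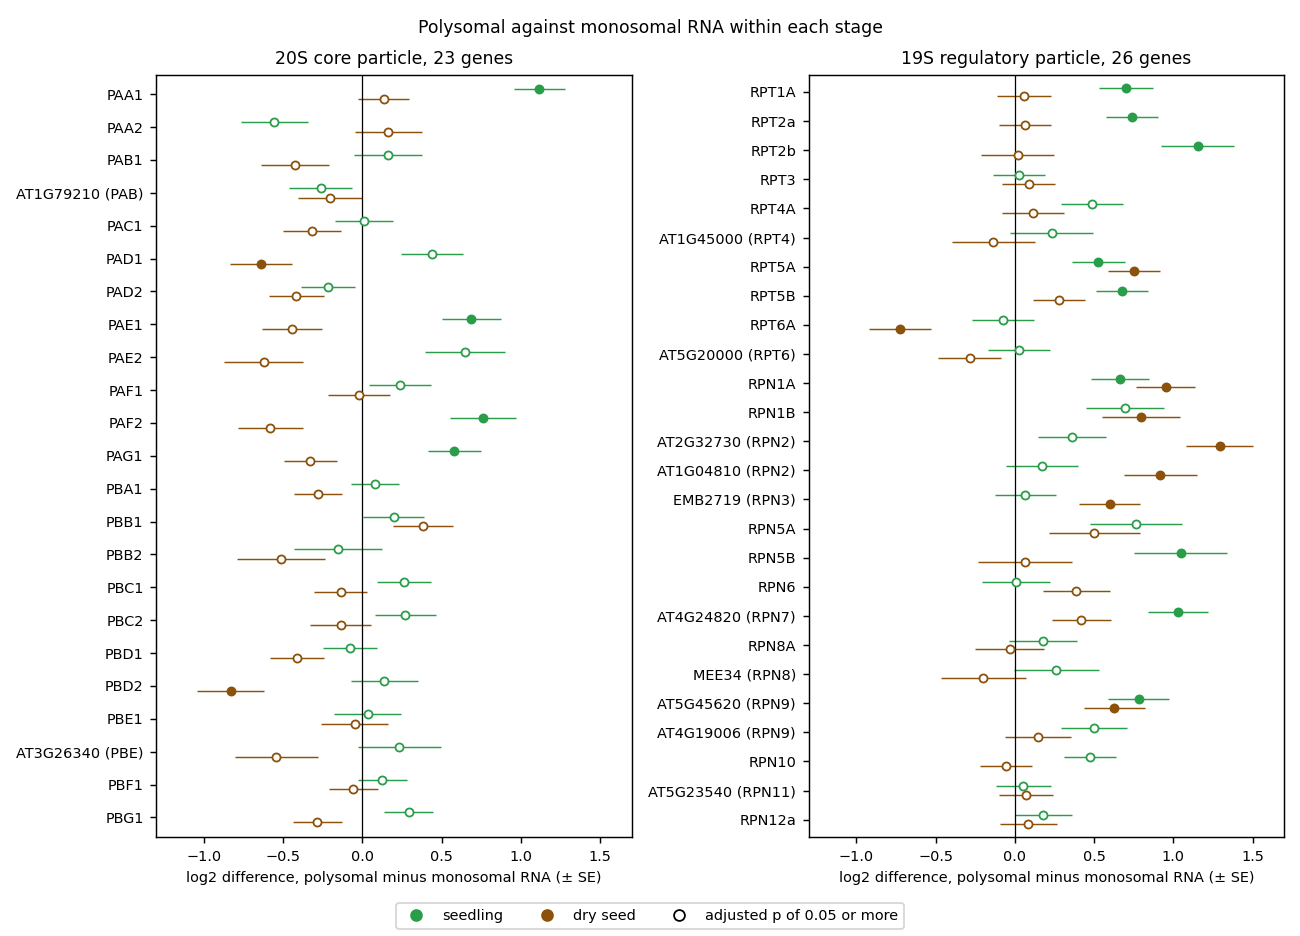
Log2 difference (polysomal minus monosomal RNA, ± SE) of core genes (left) and regulatory genes (right) in seedlings and in dry seeds; filled points had an adjusted p under 0.05 in limma. Filled seedling points lie right of 0 for 13 genes, and filled dry seed points lie right of 0 for 7 regulatory genes and left of 0 for PAD1, PBD2 and RPT6A.

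Whether a fraction difference itself changed between stages was tested by the interaction term of the same model. For polysomal minus monosomal RNA 8 members shifted upwards in seedlings and 0 downwards, where 5.69% of all loci shifted upwards and 4.8% downwards (10.5% together). Of these 7 were core genes. The shifts were 1.34 for PAF2, 1.27 for PAE2, 1.13 for PAE1, 1.13 for RPT2b, 1.08 for PAD1, 0.98 for PAA1, 0.97 for PBD2 and 0.91 for PAG1.

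For PAF2 the polysomal minus monosomal difference was 0.76 in seedlings and −0.58 in dry seeds (interaction adjusted p = 0.00638 in limma). PBD2 lost its call with median centring or without any of 13 single arrays, PAE2 and RPT2b without any of 6, and PAG1 without any of 3. PAD1 lost its call without seedling polysomal replicate 1. The count was 4 without dry seed monosomal replicate 3, dry seed polysomal replicate 2 or seedling polysomal replicate 1, and 5 without dry seed polysomal replicate 1. With median centring 7 shifted upwards and 1 downwards, and with loess scaling 8 and 1. Without seedling polysomal replicate 3 and monosomal replicate 1 together, 6 shifted upwards and 0 downwards, and PAE2 and PBD2 lost their calls.

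For polysomal minus total RNA 3 members shifted upwards and 0 downwards, where 4.04% of all loci shifted upwards and 4.96% downwards (9% together). PAE1 shifted by 1.44 (SE 0.27, adjusted p = 0.00224 in limma), PAB1 by 1.30 (adjusted p = 0.0114) and RPN10 by 1.15 (adjusted p = 0.00488). In dry seeds polysomal RPN10 read 8.13, 8.32 and 8.18, against 8.18, 8.21 and 8.33 in total RNA, so that its fractions overlapped there and stood apart in seedlings.

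For monosomal minus total RNA 4 members shifted upwards and 4 downwards, where 9.27% of all loci shifted upwards and 9.85% downwards (19.1% together), close to the members' share. EMB2719 (1.08), RPN1A (0.99), AT1G04810 (0.95) and PBB1 (0.90) shifted upwards, and PAF2 (−1.09), PAG1 (−0.96), RPT2b (−0.94) and RPT2a (−0.67) downwards. With median centring or the 75th percentile 6 shifted upwards and 2 downwards, with quantile scaling 4 and 2, and with loess scaling 4 and 3. The calls of RPT2a, RPT2b and AT1G04810 rested on thin margins, with adjusted p of 0.0481, 0.0476 and 0.0464 in limma. They were lost in 17, 14 and 13 of the 18 fits without 1 array, and that of RPT2b under every scaling tried. PBB1 lost its call without any of 3 single arrays.

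Genes that work with the proteasome were read from related lists, beside 28.8% of all loci higher and 33.3% lower in total RNA, 26.8% and 24.9% in monosomal RNA and 26.7% and 26.8% in polysomal RNA. Of 10 COP9 signalosome genes, whose complex removes NEDD8 from cullin ubiquitin ligases, 1 was higher and 8 lower in seedling total RNA, 0 and 8 in monosomal RNA and 1 and 6 in polysomal RNA. CSN6B read 3.62, 3.65 and 3.63 in seedling total RNA, against 6.34, 6.50 and 6.63 in dry seed total RNA, a difference of −2.85 (SE 0.22, adjusted p = 6.03e-10 in limma). On 2 of those seedling arrays it lay under the median of all loci, so that the size of the difference is not settled. CSN2 (−1.62), CSN3 (−1.51) and CSN7 (−1.18) followed in total RNA, and the list medians of −1.14, −1.15 and −0.70 in the 3 fractions kept their sign under every scaling tried.

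Of 12 shuttle receptors and deubiquitinases, 1 was higher and 9 lower in total RNA, 3 and 5 in monosomal RNA and 1 and 5 in polysomal RNA. In polysomal RNA the counts were 1 and 8 with median centring, 2 and 3 with the 75th percentile, 2 and 4 with quantile and 2 and 2 with loess scaling. RAD23C, a shuttle protein that carries ubiquitinated substrates, read 6.79, 6.97 and 6.50 in seedling total RNA, against 4.26, 4.76 and 4.84 in dry seed total RNA. It went against its list, with a change of 2.14 (adjusted p = 1.74e-08 in limma). UCH2 (−1.56) and UBP6 (−1.26), deubiquitinases, and RAD23D (−1.20) were lower.

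Of 14 genes for ubiquitin, its activating enzymes (E1) and its conjugating enzymes (E2), 5 were higher and 6 lower in total RNA, 5 and 4 in monosomal RNA and 5 and 5 in polysomal RNA. UBA2, an activating enzyme, read 5.48, 5.46 and 5.42 in seedling total RNA, against 8.19, 8.13 and 8.04 in dry seed total RNA, a change of −2.67. UBQ14 (−2.33) and UBQ3 (−1.60), polyubiquitin genes, and UBA1 (−1.57), the other activating enzyme gene, were lower. UBQ1, which encodes ubiquitin fused to a ribosomal protein, rose by 1.56, and lies outside the naming rule in total RNA.

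Among 7 assembly, activator and regulator genes 1 was higher and 4 lower in total RNA, 1 and 3 in monosomal RNA and 2 and 4 in polysomal RNA. PA200, a core activator that replaces the regulatory particle, read 6.24, 6.22 and 6.20 in seedling total RNA, against 7.86, 8.15 and 8.13 in dry seed total RNA. Its change was −1.83 in total, −0.95 in monosomal and −2.42 in polysomal RNA. AT1G67250 was higher in total RNA (2.47), and AT3G53970 (−2.20) and the transcription factor gene anac078 (−1.66) were lower. RefSeq names AT1G67250 and AT3G53970 by locus tag only.

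Of 7 further subunit loci outside the list of 49, 1 was higher and 2 lower in total RNA, 2 and 2 in monosomal RNA and 2 and 2 in polysomal RNA. Among these loci AT4G15165 lay under the array median on all 18 arrays and RPN12b on 17. With median centring the counts were 0 and 6, 1 and 3, and 0 and 4, and with the 75th percentile, quantile or loess scaling 2 and 1 in monosomal and in polysomal RNA. AT1G53780 read 3.61, 3.81 and 3.37 in seedling total RNA, against 6.94, 7.08 and 7.02 in dry seed total RNA, a difference of −3.42 (SE 0.29, adjusted p = 2.71e-09 in limma). On 2 of those seedling arrays it lay under the median of all loci, so that the size of this difference is not settled either. AT1G75990 changed by 1.13, and RPN13, a ubiquitin receptor, by −0.83.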

How the data were processed

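The values are log2 intensities of 18 arrays, made by the authors with RMA per the submitters' processing notes and deposited as 1 row for each of 27827 loci. The software version and probe grouping are not given in the sources used here. Groups came from the sample labels, which call the replicates biological, with 8 plants in each bulk. The values were used as deposited. A model of 6 group means was fitted over all loci with limma 3.58.1 in R 4.3.3 (12 residual degrees of freedom, 7.16 prior), with Benjamini-Hochberg adjustment over all loci in each of 12 comparisons. Pairs of paralogues were tested by exact permutation with Python 3.11.15. The members and lists were chosen with earlier results of these data known. Named members passed an adjusted p of 0.05 with a log2 change of at least 0.5 and were the largest of their comparison (up to 12 core genes, up to 10 members in fraction comparisons, 4 genes of a related list, 8 pairs). The number of arrays limits the precision. Data were simulated for total RNA with 200 of 27827 loci changed and all others alike between the stages. On the log2 scale, the fit recovered there 2.99% of changes of 0.5, 34.3% of changes of 1 and 84.8% of changes of 2. In the real comparison 62.1% of loci were called, which makes the adjustment less strict. The simulated shares therefore do not give the recovery in the real data. Alternatives covered scaling, low loci, thresholds, variance prior, array weights, replicate block and left-out arrays.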

Additional observations from a re-analysis of the deposited data

Results flagged for a closer look

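For 19 differences between fractions, the limma interaction term had an adjusted p under 0.05 in the main fit. For polysomal minus monosomal RNA these were PAF2 (1.34), PAE2 (1.27), RPT2b (1.13), PAE1 (1.13), PAD1 (1.08), PAA1 (0.98), PBD2 (0.97) and PAG1 (0.91). For polysomal minus total RNA they were PAE1 (1.44), PAB1 (1.30) and RPN10 (1.15). For monosomal minus total RNA they were PAF2 (−1.09), EMB2719 (1.08), RPN1A (0.99), PAG1 (−0.96), AT1G04810 (0.95), RPT2b (−0.94), PBB1 (0.90) and RPT2a (−0.67). Each value is the log2 difference in seedlings minus that in dry seeds. These terms share arrays with one another. The calls of RPT2a, RPT2b and AT1G04810 for monosomal minus total RNA were lost in 17, 14 and 13 of the 18 fits without 1 array. That of PBD2 for polysomal minus monosomal RNA was lost in 13.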

How the results depend on the processing

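Total, monosomal and polysomal stage counts, given as higher and lower, were 8 and 23, 5 and 18, and 16 and 11 with median centring. In monosomal RNA the 75th percentile gave 25 and 6, quantile scaling 25 higher and loess 5 lower. Requiring 2-fold left 9 calls (7 and 2), 4 (3 and 1) and 11 (11 and 0). An adjusted p under 0.01 left 6 lower in total RNA and 6 lower in monosomal RNA. Fitting the compared groups alone left 6 lower in monosomal RNA, and a trended robust prior gave 5 lower in polysomal RNA.

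Core medians were −0.036, 0.070 and 0.48 and regulatory medians −0.65, −0.34 and −0.36 with median centring. The regulatory medians were 0.20 in monosomal and 0.26 in polysomal RNA with the 75th percentile, and 0.091, 0.18 and 0.39 with loess.

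For dry seed monosomal minus total RNA, loess gave 5 calls, leaving out the 6957 lowest loci 5, the trended prior 6, and the compared groups alone, p under 0.01 or 2-fold 0. Dry seed polysomal minus total RNA had 1 call with array weights. Dry seed polysomal minus monosomal RNA had 18 with the 75th percentile, 5 at 0.01 and 1 at 2-fold. Seedling polysomal minus total RNA had 9 with loess, 7 at 0.01 and 5 at 2-fold; polysomal minus monosomal 3 with the compared groups alone, 7 at 0.01 and 4 at 2-fold; monosomal minus total 1 at 2-fold.

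The shift in monosomal minus total RNA had 4 calls with the compared groups alone, 1 at 0.01 and 2 at 2-fold. That in polysomal minus total RNA had 6 with the 75th percentile and 5 with the trended prior. That in polysomal minus monosomal RNA had 13 with the trended prior, 1 at 0.01 and 5 at 2-fold. The causes of these moves were not tested.

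Over single arrays left out, stage calls ran between 23 and 27 (15 to 17 higher, 7 to 10 lower) in total RNA, 22 and 28 (15 to 20, 7 to 10) in monosomal RNA and 24 and 29 (22 to 25, 2 to 4) in polysomal RNA. Core medians ran between 0.44 and 0.53, 0.36 and 0.55, and 0.80 and 0.97, and regulatory medians between −0.26 and −0.07, −0.08 and 0.07, and 0.01 and 0.14. Dry seed calls ran between 0 and 5 (monosomal minus total, 5 without seedling monosomal replicate 2), 0 and 0 (polysomal minus total) and 6 and 11 (polysomal minus monosomal). Seedling calls ran between 9 and 13 (monosomal minus total), 7 and 16 (polysomal minus total) and 9 and 15 (polysomal minus monosomal). The 3 shifts, in the order monosomal minus total, polysomal minus total and polysomal minus monosomal, ran between 4 and 8, 3 and 3, and 4 and 8. The first was 4 without dry seed total replicate 1 or seedling total replicate 2, and 5 without dry seed monosomal replicate 2 or 3, any dry seed polysomal array, dry seed total replicate 3 or seedling total replicate 3. Pairs that moved apart ran between 8 and 11. Of calls of named members, 157 of 2322 were lost over these fits, 17 of them without dry seed monosomal replicate 3.

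Samples with the same replicate number did not deviate together (correlations between −0.06 and 0.08 over 45 pairs of arrays, 0 over 0.1), so the numbers were not taken as pairing. With the replicate block the shift in monosomal minus total RNA had 5 calls. For paralogue pairs, a replicate block that permuted the stage labels jointly gave 0 calls, where its smallest possible p is 0.1, and total RNA alone gave 0 for the same reason.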

Other observations

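Partners of the proteasome were also compared between fractions of seedlings, in the main fit alone. Of 12 shuttle receptors and deubiquitinases, 7 were higher in polysomal than in total RNA and 0 lower, with a list median of 0.62, against 0.08 over all loci, of which 9.86% were higher and 10.7% lower. Of 10 COP9 signalosome genes, 4 were higher in polysomal than in total RNA and 6 higher in polysomal than in monosomal RNA, with 0 lower in either. The list medians were 0.58 and 0.71, against 0.08 and −0.10 over all loci, and 9.86% and 10.9% of all loci were higher. Of 14 ubiquitin, E1 and E2 genes, 0 were higher and 3 lower in polysomal than in monosomal RNA, with a median of −0.11. Of all loci 10.9% were higher and 8.17% lower there (19.1% together), close to the share of this list called in either direction.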
